A study of Canis lupus familiaris with 22 samples.

Results

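The genes of the pancreatic islet hormones, INS (insulin), SST (somatostatin), GCG (glucagon) and IAPP (islet amyloid polypeptide), were described in healthy and tumour tissue of the canine mammary gland. These 4 genes, of 1458 that could be given a symbol, were selected on their levels in earlier results from these arrays, so their levels in healthy and tumour tissue are a description with no test. Every probe aimed at a canine RefSeq transcript of a member was kept, which gave 6 of the 43603 probes. INS and IAPP had 2 probes each, and SST and GCG had 1 each.

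Total RNA of malignant tumours, benign tumours and healthy mammary gland of dogs was labelled with Cy3 and read on Agilent canine arrays. By the labels, 6 dogs had a malignant tumour, 3 a benign tumour and 2 a healthy gland, with duplicate arrays a and b for each; no treatment, age or breed is given. Scanner values were at hand for 9 arrays of 5 malignant dogs, 6 arrays of 3 benign dogs and 4 arrays of 2 healthy dogs. Array b of malignant dog 5 and the pair of malignant dog 6 are found only in a table of signals.

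A level is the log2 signal of a probe minus the 75th percentile of the same array, averaged over the arrays of a dog, and n counts dogs. A level is compared between dogs for the same probe, and levels of different probes are set together only in the summed levels of gene lists. Between 62.1% and 83.2% of probes were well above background by the scanner's own call, and the signal at the 75th percentile was between 299.5 and 1638. The duplicate arrays of a dog correlated with r between 0.981 and 0.990 across probes, and probes are not independent replicates. The 19 arrays lay on 6 slides, 3 of which held a healthy array, and only 2 healthy dogs stand behind every comparison with healthy tissue. They were read on 2 scanners and 2 days. Array a of malignant dog 5 was the only one of them on its slide, scanner and day.

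Islet hormones are secreted by endocrine cells scattered through the pancreas: insulin and islet amyloid polypeptide by beta cells, glucagon by alpha cells and somatostatin by delta cells. The surrounding exocrine pancreas makes digestive enzymes, and the mammary gland makes milk proteins in a keratin-positive epithelium. Insulin acts on the mammary gland through its receptor, and islet cells are not a part of that gland.

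INS encodes the hormone that lowers blood glucose, and its first probe was well above background on all 19 arrays. Its level was 9.36 in healthy dog 1 and 4.64 in healthy dog 2. In malignant dogs 1 to 5 it was -3.75, -4.31, -2.92, -3.48 and -3.90. In benign dogs 1 to 3 it was -2.97, -4.33 and -3.88. Both healthy dogs lay above all 8 tumours, with a gap of 7.55 between healthy dog 2 and the highest tumour. The malignant mean was -3.67 ± 0.517 (SD, n = 5) and the benign mean -3.73 ± 0.696 (SD, n = 3). The malignant mean was lower than the healthy mean by a log2 difference of -10.67, or 1629-fold, and the benign mean by -10.73, or 1693-fold. These sizes depend on which healthy dog is used: the malignant difference was -13.03 against healthy dog 1 alone and -8.31 against healthy dog 2 alone, and the benign difference -13.09 and -8.36. They also depend on the background treatment, with differences from the mean of both healthy dogs of -9.04 and -9.57 after normexp correction and -9.51 and -9.78 on signals with no background subtracted.

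The second INS probe ordered the groups in the same way with smaller differences. Its level was 6.18 in healthy dog 1 and 1.00 in healthy dog 2. It was -3.36, -2.60, -2.19, -2.74 and -2.73 in malignant dogs 1 to 5, and -3.04, -3.38 and -2.96 in benign dogs 1 to 3. The malignant mean was 79.4-fold and the benign mean 105-fold below the healthy mean, so the INS probes disagree on the size of the difference. Against healthy dog 1 alone the malignant and benign means were 478-fold and 634-fold lower, and against healthy dog 2 alone 13.2-fold and 17.5-fold. The probe was well above background on every array, and the groups did not overlap.

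SST encodes a peptide that restrains the release of insulin and glucagon. Its level was 5.20 in healthy dog 1 and 0.26 in healthy dog 2, well above background on 4 of 4 healthy arrays. No tumour array was well above background (0 of 8 malignant and 0 of 6 benign), and the values there read -7.88, -7.71, -6.39, -7.20 and -7.16 in malignant dogs 1 to 5 and -7.61, -7.65 and -7.58 in benign dogs 1 to 3. SST was measured in healthy tissue only. A fold involving arrays not well above background is given as a bound, computed with each such tumour array set to the lowest level that any probe well above background had on it, or to the probe's own level where that was higher. SST was at least 293-fold lower in malignant and at least 375-fold lower in benign tumours, or log2 bounds of -8.20 and -8.55. Against healthy dog 1 alone these bounds were -10.67 and -11.02, and against healthy dog 2 alone -5.72 and -6.08. The bounds depend on the background treatment, and were -5.47 and -6.29 after normexp correction and -5.88 and -6.44 on signals with no background subtracted. The spot of SST on array b of malignant dog 1 was an outlier, reading -2.52, and was left out, with the array set to its lowest level for the bound. With that spot kept, the level of the dog was -5.20 and the malignant bound -7.83.

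GCG encodes glucagon, which raises blood glucose and opposes insulin. Its level was 2.83 in healthy dog 1 and -2.11 in healthy dog 2. In malignant dogs 1 to 5 it was -6.35, -6.03, -3.99, -5.55 and -3.45, with 3 of 9 arrays well above background. In benign dogs 1 to 3 it was -5.86, 2.19 and -6.02, with 4 of 6 arrays well above background. Benign dog 2 stood apart from the other tumours, 5.63 above the next of them and above healthy dog 2, so GCG is the member whose groups overlapped. The malignant mean was -5.07 ± 1.28 (SD, n = 5), lower than the healthy mean by a difference of -5.43, or at least 38.5-fold. The benign mean was -3.23 ± 4.69 (SD, n = 3), a difference of -3.59, or at least 9.45-fold. The benign log2 bound was -1.93, -5.77 and -2.02 without benign dogs 1, 2 and 3. Against healthy dog 1 alone the malignant and benign bounds were -7.74 and -5.71 on the log2 scale, and against healthy dog 2 alone -2.80 and -0.77. Normexp background correction reduced the differences from the mean of both healthy dogs to -3.27 and -2.14.

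The high GCG reading of benign dog 2 was present on both of its arrays, with levels that differed by 0.0186 and signals of 6500 and 6754. The signals of healthy dog 1 were 3436 and 2739, and those of healthy dog 2 were 147 and 152. Among the 35288 probes tested, 4 had benign dog 2 above every other tumour by at least the gap of GCG, and 13 by at least 4. Of these 13, GCG and H19, an imprinted non-coding RNA, carried a symbol. H19 was picked out after its values were seen; its level was 7.18 in benign dog 2, 0.93 in the next tumour, malignant dog 2, and -6.18 and -3.84 in healthy dogs 1 and 2. INS of benign dog 2, at -4.33, was the lowest of the tumours, and its SST, at -7.65, lay inside their range. Neither array of benign dog 2 shared a slide with a healthy array, and what set this dog apart was not tested.

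IAPP encodes a peptide stored and released with insulin. The level of its first probe was 2.59 in healthy dog 1 and -2.45 in healthy dog 2. It was -6.53, -6.93, -6.60, -6.23 and -7.35 in malignant dogs 1 to 5, with 2 of 9 arrays well above background. It was -5.65, -4.50 and -6.11 in benign dogs 1 to 3, with 4 of 6 arrays well above background. Both healthy dogs lay above all tumours, and benign dog 2 had the highest mean of the tumours, while single arrays of benign dogs 1 and 3 read higher, at -3.50 and -4.41. The malignant mean of -6.73 ± 0.427 (SD, n = 5) differed from the healthy mean by -6.80, or at least 41.6-fold, and the benign mean of -5.42 ± 0.830 (SD, n = 3) by -5.49, or at least 28.1-fold. The duplicate arrays of this probe differed by up to 4.30, in benign dog 1, so its tumour values are imprecise. Against healthy dog 1 alone the malignant and benign bounds were -7.90 and -7.33 on the log2 scale, and against healthy dog 2 alone -2.86 and -2.29. The sizes depend on the background treatment: the differences from the mean of both healthy dogs were -3.30 and -3.68 after normexp correction and -3.83 and -3.92 on signals with no background subtracted, smaller than the bounds above.

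The second IAPP probe was measured above background on 4 of 4 healthy, 0 of 9 malignant and 0 of 6 benign arrays. Its level was 2.24 in healthy dog 1 and -2.86 in healthy dog 2, and the healthy mean was at least 35.6-fold above malignant and at least 45.5-fold above benign tumours. Against healthy dog 2 alone these bounds were 6.08-fold and 7.78-fold. The probes of IAPP disagree on whether benign tumours held a measurable signal, since the first was well above background on 4 of 6 benign arrays.

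**Figure D1:**
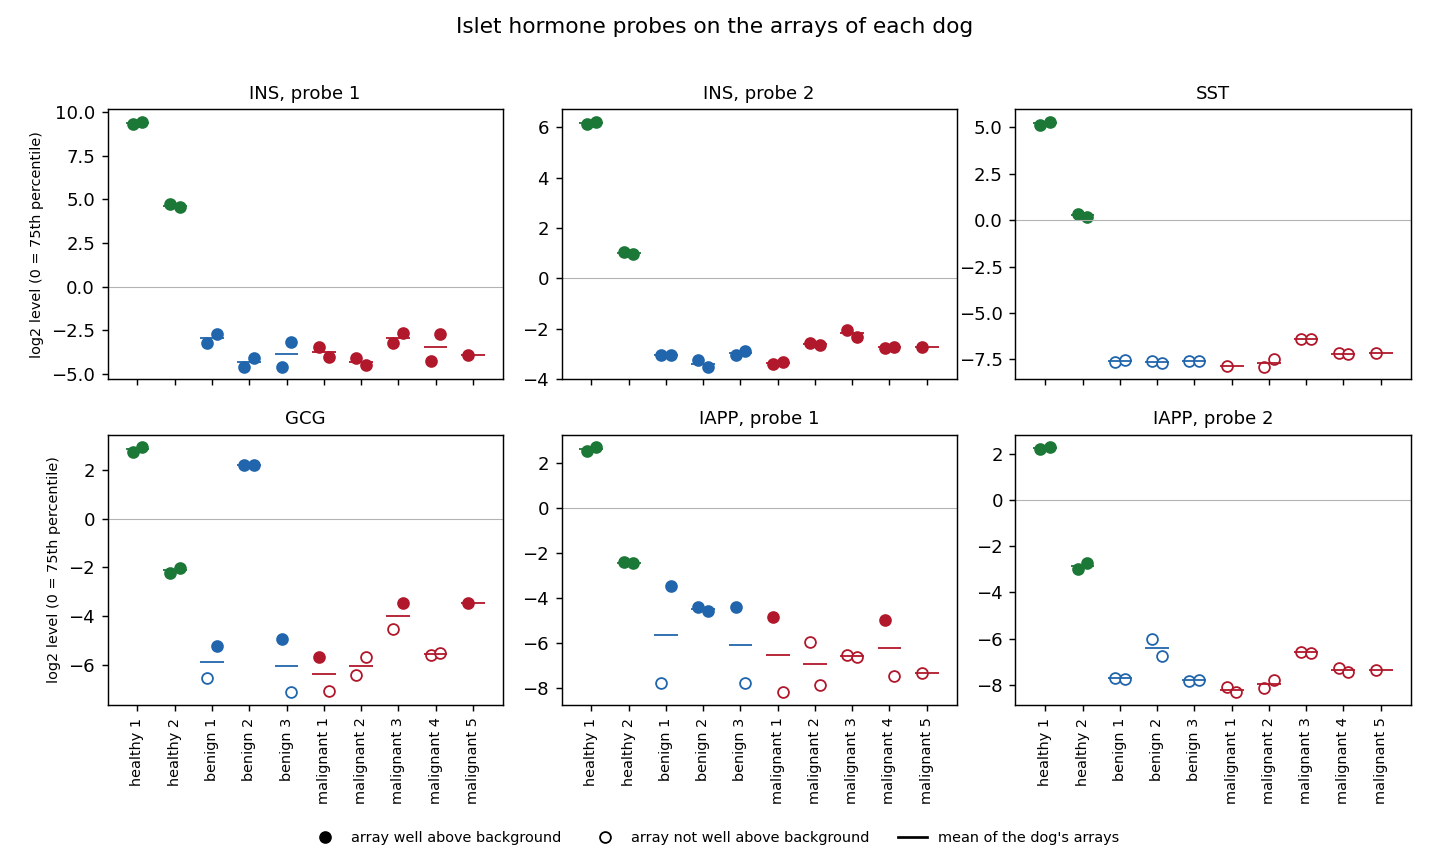
The log2 level of each hormone probe, relative to the 75th percentile of the array, on every array of the 10 dogs, with filled points for arrays well above background, open points for the others and a line at the mean of the dog. Healthy dogs 1 and 2 lie above all tumours for INS, SST and IAPP, and benign dog 2 reaches 2.19 for GCG, between healthy dog 1 at 2.83 and healthy dog 2 at -2.11.

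Of the 35288 tested probes, 2.82% had all malignant dogs under the lower of the healthy dogs and 11.1% all benign dogs. All 6 hormone probes met the first condition and 5 of 6, GCG being the exception, met the second; the members were chosen by this contrast, so nothing is read from these counts. In whole tissue, fewer cells of a type and less RNA per cell cannot be told apart. The differences were also taken within the 3 slides that held a healthy array. For INS, the malignant minus healthy difference of the first probe was -10.46, -13.51 and -7.29 on the slides with both healthy dogs, healthy dog 1 and healthy dog 2, and the benign difference -10.21 and -7.51 on the slides with both and with healthy dog 2. For GCG, with arrays not above background at their lowest level, the malignant bounds on these slides were -5.92, -9.02 and -3.42 and the benign bounds -6.07 and -3.45, without benign dog 2. For the first IAPP probe they were -4.88, -8.77 and -2.96, and -5.84 and -2.14. Each of these within-slide values had the tumour arrays lower. With slide as a block and dog as a random effect, the malignant and benign differences were -10.11 and -10.27 for INS, -6.42 and -4.27 for GCG, and -7.29 and -6.43 for IAPP; those of GCG and IAPP are fitted to arrays below background as well and are no bounds.

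Healthy dog 1 exceeded healthy dog 2 for each hormone, as it did for most probes that limma called between tumours and healthy tissue, 146 of 147 for malignant and 131 of 134 for benign tumours. The direction is therefore not particular to the hormones. The difference was 4.72 for INS, 4.94 for SST, 4.94 for GCG and 5.04 for IAPP on the first probes, and 5.18 and 5.10 on the second probes of INS and IAPP. These correspond to 26.4-fold, 30.8-fold, 30.7-fold, 33.0-fold, 36.3-fold and 34.3-fold. The duplicate arrays of the healthy dogs differed by at most 0.223 for any of these probes. Over all 35288 tested probes the median difference between the healthy dogs was 0.0063; 594 probes, or 1.68%, were higher in healthy dog 1 by at least 4, and 793 were higher in healthy dog 2 by at least 4. Under quantile normalization the difference was 3.18 for INS, 4.43 for SST, 4.90 for GCG and 5.04 for IAPP, so the amounts are less alike there. With 1 dog on each side this difference has no test.

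Most, but not all, named genes of the pancreas and stomach were also higher in healthy dog 1. PPY, the pancreatic polypeptide of the islet, differed by 5.68, and the 7 named exocrine genes by a median of 4.37, from 1.28 for CLPS to 5.26 for REG3A. Of the stomach and intestine list, CBLIF differed by 4.43, TFF1 by 4.03 and LIPF, not above background in healthy dog 2, by at least 3.37, but ATP4A by -1.53. Of the duct list, CFTR differed by 4.06 and KRT19 by -1.85. The milk protein genes went the other way: with arrays of healthy dog 1 that were not above background at their lowest level, the differences were -4.24 for CSN2 and -5.77 for LALBA, and the growth factor gene IGF1 gave -5.27. The median was -0.72 over the 5 insulin signalling genes tested.

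**Figure D2:**
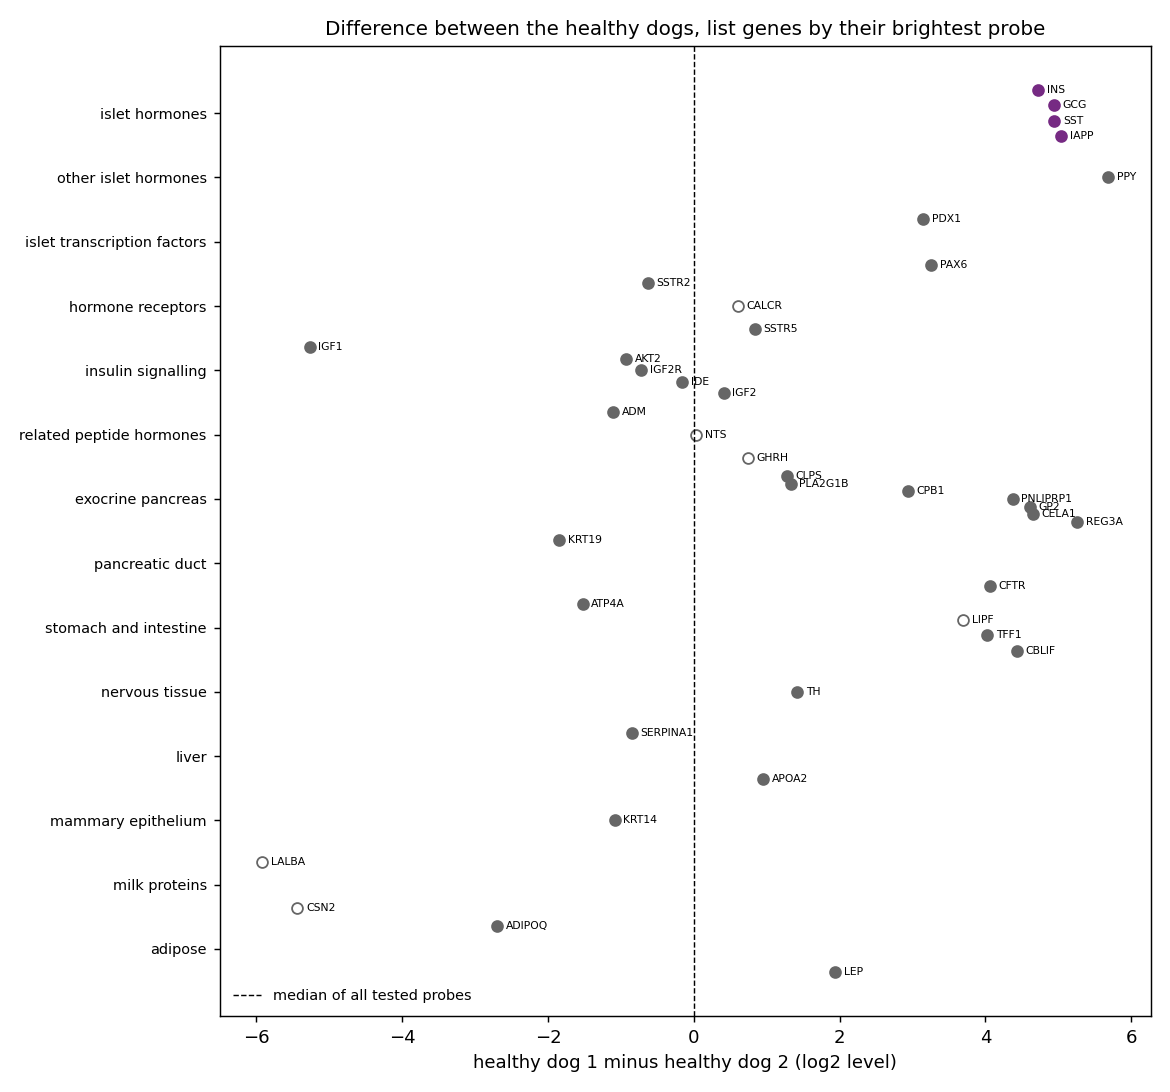
The log2 level of healthy dog 1 minus that of healthy dog 2 for each tested list gene by its brightest probe, with the median of all tested probes as a dashed line and open points for genes not well above background on all 4 healthy arrays. The 4 islet hormones lie between 4.72 and 5.04 and PPY at 5.68, while the milk protein genes, both open, lie below 0.

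Malignant and benign tumours were compared by limma, which the choice of members did not use, to ask whether a hormone differs between tumour types. The 4 probes with arrays above background in both tumour types, those of INS, the GCG probe and the first IAPP probe, bear on this. Limma called 0 of these 4 at an adjusted p of 0.05, against 0% of all 35288 probes, with 636 probes and 0 of the 4 at an unadjusted p of at most 0.05. An unpaired test fitted to each probe by itself also called 0, with 802 probes and 1 of the 4, the first IAPP probe, at an unadjusted p of at most 0.05. INS was 0.06 higher in malignant tumours on the first probe (SE 0.875, limma adjusted p = 1.00), with 1 of 5 malignant dogs above all benign dogs, and 0.41 higher on the second (SE 0.903, limma adjusted p = 1.00), with 4 of 5 above them. The INS difference on the first probe turned to -0.13 without malignant dog 3, -0.25 without benign dog 2 and -0.02 without benign dog 3.

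GCG was lower in malignant than in benign tumours by a difference of -1.84 (SE 1.80, limma adjusted p = 1.00), with 2 of 5 malignant dogs below all benign dogs, 1 of these with no array above background. Without benign dog 2 the difference was 0.87, so its direction rested on that dog. The first IAPP probe gave -1.31 (SE 0.920, limma adjusted p = 1.00), on 2 of 9 and 4 of 6 arrays well above background; 5 of 5 malignant dogs read below all benign dogs, but 3 of them had no array above background, so this order is not one of measured levels. Its direction turned with the background treatment, to 0.37 after normexp correction and 0.089 on signals with no background subtracted. SST and the second IAPP probe were below background in both tumour types and give no difference. These standard errors share the spread of the 2 healthy dogs; fitted to the tumours alone they were 0.470 for the first INS probe, 1.71 for GCG and 0.474 for the first IAPP probe, and limma again called 0 probes, with 734 at an unadjusted p of at most 0.05. Of the 4 hormone probes 1 was among these, the first IAPP probe (p = 0.0207 unadjusted, limma adjusted p = 1.00), which was measured on 2 of 9 malignant arrays.

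The other genes of the islet were searched in 3 lists of 46 genes, of which 4 carried a named probe. These were the hormones PPY and GHRL and the transcription factors PDX1 and PAX6, which act in islet development. None of the 26 genes of hormone processing and secretion could be named. Of the 3 genes tested, limma called 0 in malignant and 0 in benign against healthy tissue, with 2 of 3 in each at an unadjusted p of at most 0.05. That level was reached by 2051 of all 35288 probes in malignant and by 2394 in benign against healthy tissue. Over all probes limma called 147 of 35288, 0.417%, in malignant against healthy tissue, all lower, and 134, 0.38%, in benign against healthy tissue, of which 133, 0.377%, were lower. The count of 147 became 96 without healthy dog 1 and 950 without healthy dog 2, and the count of 134 became 86 and 994. In both cases the omission of 1 healthy dog leaves a lone healthy dog, assumed to vary like the tumours. Calls were less one-sided with dog as a random effect on single arrays, where 28 of 195 malignant and 54 of 199 benign calls were higher, without benign dog 1, where 36 of 135 benign calls were higher, and without healthy dog 2, where 100 of 950 and 156 of 994 were. The unpaired single-probe test called 32 and 0. Of the 147 and 134 called probes, 55 and 50 entered the test only through the healthy arrays, where they are high, so that these calls follow in part from the filter.

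PPY was well above background on all 19 arrays. Its level was 6.29 in healthy dog 1 and 0.61 in healthy dog 2, from -3.04 to -1.58 in malignant and from -3.06 to -2.15 in benign dogs. Both healthy dogs lay above all tumours. The difference was -6.04 in malignant tumours (SE 1.15, limma adjusted p = 0.0676), lower in 5 of 5 dogs, and -6.08 in benign tumours (SE 1.25, limma adjusted p = 0.125), lower in 3 of 3 dogs. Neither passed the threshold. PPY was called in malignant tumours after normexp correction, quantile normalization, with the signals that include malignant dog 6, and in models of single arrays with dog as a random effect, with and without slide as a block. In benign tumours it was called in the model with slide as a block; without healthy dog 2, which leaves 1 healthy dog assumed to vary like the tumours, PPY and PDX1 were called in both contrasts.

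PDX1, a factor of the developing pancreas and of beta cells, had a level of -1.60 in healthy dog 1 and -4.75 in healthy dog 2. Tumours lay between -6.21 and -4.72, so healthy dog 2 fell inside their range. The differences were -2.12 (SE 0.762, limma adjusted p = 0.744) and -2.25 (SE 0.831, limma adjusted p = 0.654) in malignant and benign tumours, and did not pass. PAX6, needed for islet cells and also active in the eye and brain, was well above background on all 19 arrays, at -0.22 and -3.48 in healthy dogs 1 and 2. Its highest level was 0.62 in malignant dog 1, and benign dog 2 had -1.76, the highest of the benign dogs.

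GHRL, the ghrelin gene, was measured on 2 of 4 healthy arrays, those of healthy dog 1 at -3.57, on 1 of 6 benign and on 0 of 9 malignant arrays, too few to be tested.

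The receptors of the hormones and the insulin signalling genes were searched in 2 lists of 35 genes, of which 11 carried a named probe and 8 were tested. The insulin and glucagon receptors were not among those named. In malignant or benign against healthy tissue limma called 0 of 8, with 1 of 8 at an unadjusted p of at most 0.05 in malignant and 0 of 8 in benign tumours. Over all 35288 probes these unadjusted counts were 2051 and 2394, so nothing is read from the 1 of 8. Of the somatostatin receptors, SSTR1 and SSTR3 were well above background on 0 of 19 arrays. SSTR2 was at -3.26 and -2.63 in healthy dogs 1 and 2, and its malignant and benign differences were -0.0021 and 0.04. SSTR5 was at -1.53 and -2.36, with differences of -0.20 and -0.45. CALCR, the calcitonin receptor and a component of amylin receptors, was at -3.64 and -4.24, with differences of 0.06 and -0.51.

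IGF2R, which clears insulin-like growth factor 2 from the cell surface, was the 1 gene at an unadjusted p of at most 0.05. Its level was 3.59 and 4.31 in healthy dogs 1 and 2, 4.85 to 6.29 in malignant dogs and 4.46 to 5.13 in benign dogs. All tumours lay above both healthy dogs, and the malignant difference was 1.39 (SE 0.511, limma adjusted p = 0.757), which did not pass. IGF1 spread widely in every group, at -3.64 and 1.63 in healthy dogs 1 and 2. The median difference over tested genes was -0.0021 and -0.45 for receptors and 0.16 and 0.18 for insulin signalling, beside 0.07 and 0.03 over all tested probes.

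Related peptide hormones gave 5 named genes of 16, of which 3 were tested and limma called 0 in either contrast, with 0 at an unadjusted p of at most 0.05. ADM, the vasodilator adrenomedullin, was well above background on all 19 arrays, at 2.19 and 3.29 in healthy dogs 1 and 2 and 1.05 to 4.19 in tumours. NTS, the neurotensin gene, was measured on 0 of 4 healthy, 4 of 9 malignant and 3 of 6 benign arrays. GHRH was measured in all groups, CALCB on 1 healthy array and MLN on 0 arrays.

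Exocrine pancreas genes had their high levels in the healthy dogs too. Of 31 listed genes 7 carried a named probe, and limma called 6 of 7 by their brightest probe, and 18 of their 19 probes, lower in both malignant and benign tumours. Over all 35288 tested probes limma called 0.417% lower in malignant and 0.377% lower in benign tumours. The list was written with earlier results of these data known, so the calls of exocrine genes are no independent support. Of the 19 probes 8 entered the test only through the healthy arrays, and among the 11 that tumour arrays alone would have kept, 10 were called in each contrast, as were 5 of 6 genes by their brightest probe. Over all probes kept in that way, limma called 92 and 84 of 34772. The median difference was -11.47 in malignant and -11.11 in benign tumours, beside 0.07 and 0.03 over all tested probes, and -11.44 and -10.97 with tumour arrays not above background at their lowest level. The unpaired single-probe test, which called 0 probes in benign tumours, did not call these genes there. PLA2G1B, a secreted phospholipase, stood at 10.18 and 8.85 in healthy dogs 1 and 2 and between -1.26 and 0.79 in tumours (malignant difference -9.99, SE 0.655, limma adjusted p = 2.41e-05). CLPS, the cofactor of pancreatic lipase, stood at 9.95 and 8.67, and between -2.68 and -0.03 in tumours (malignant difference -11.71, SE 0.608, limma adjusted p = 1.46e-05). CPB1, a carboxypeptidase, stood at 10.11 and 7.18, and GP2, a zymogen granule protein, at 9.18 and 4.58; in tumours they lay between -5.53 and -3.84 and between -5.77 and -2.97. CELA1 is the exception: its brightest probe gave -4.06 and -4.27 (limma adjusted p = 0.225 and 0.266), while its other probes were called.

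The summed level of the 7 exocrine genes, adding the linear levels of their brightest probes, was 4638 in healthy dog 1, 1067 in healthy dog 2 and 1.63 to 3.57 in tumours. The probe of PLA2G1B gave the highest signal in both healthy dogs, which is no ranking of transcripts, and each of the 7 genes was well above background there. The summed level of the 4 hormones was 708 in healthy dog 1 and 26.5 in healthy dog 2, with the highest signal from INS. It was 4.65 in benign dog 2, with the highest signal from GCG, and 0.0788 to 0.218 in the other tumours. Exocrine genes of benign dog 2 summed to 2.02, inside the tumour range. Sums are compared between dogs for 1 list only, since each also depends on how brightly its probes read. The part of pancreatic RNA in the hormone levels of the healthy samples was not tested.

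**Figure D3:**
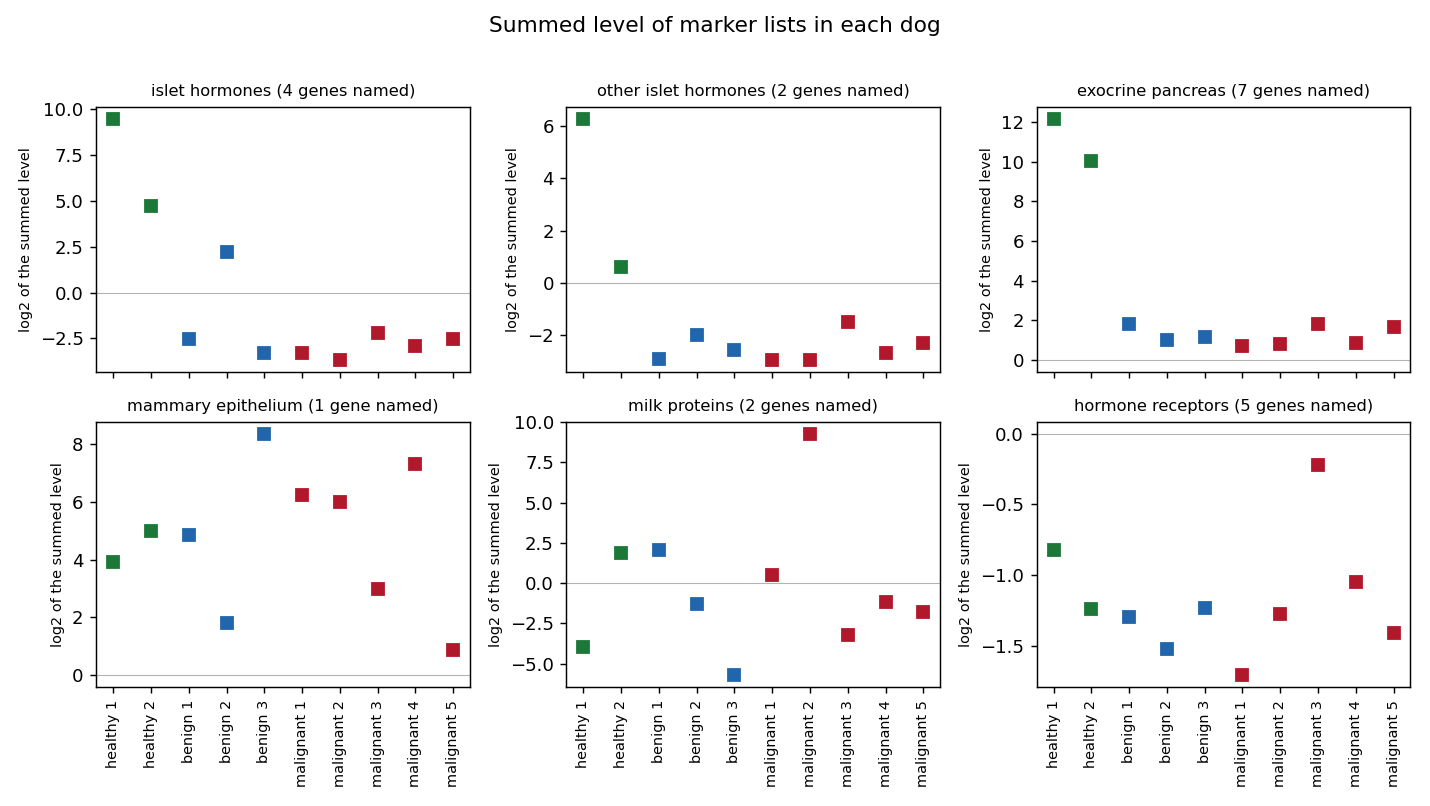
The log2 of the summed level of 6 gene lists in each dog, by the brightest probe of each gene, relative to the 75th percentile of the array. Islet hormones and exocrine genes are both highest in healthy dog 1, next in healthy dog 2, and low in tumours except for the islet sum of benign dog 2 at 2.22.

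CBLIF, gastric intrinsic factor, which in dogs is made largely by the pancreas, was at 8.48 and 4.05 in healthy dogs 1 and 2 and between -7.92 and -5.43 in tumours. It was the 1 gene called of 4 named and 13 listed for stomach and intestine, and it was at least 3079-fold lower in malignant and at least 3321-fold lower in benign tumours. Its call follows in part from the filter, since it entered the test only through the healthy arrays, being above background on 1 of 9 malignant and 2 of 6 benign arrays. The stomach genes ATP4A, LIPF and TFF1 were not called. In malignant and benign tumours LIPF had p = 0.0469 and 0.0399 (unadjusted, limma). TFF1 had p = 0.0293 and 0.0171 (unadjusted, limma), and neither gene passed after adjustment. LIPF, like CBLIF, entered the test only through the healthy arrays. It was well above background on 2 of 9 malignant, 1 of 6 benign and 2 of 4 healthy arrays. Its p therefore rests in large part on levels below background. The list summed to 361 in healthy dog 1, 17.3 in healthy dog 2 and 0.315 to 2.34 in tumours, with the probe of CBLIF brightest in both healthy dogs. Of 5 pancreatic duct genes, CFTR and KRT19 were named and 0 were called, with CFTR at an unadjusted p of 0.00405 in malignant tumours. CFTR was at 2.44 and -1.62 in healthy dogs 1 and 2, with a malignant difference of -5.33 (limma adjusted p = 0.416).

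The few markers named for other tissues did not pass. For liver 2 of 8 listed genes were named (APOA2 and SERPINA1), for nervous tissue 1 of 8 (TH) and for adipose tissue 2 of 5 (ADIPOQ and LEP). These lists had 0 genes called by limma in either contrast, with 1 liver gene, SERPINA1, at an unadjusted p of at most 0.05 in benign tumours. No leukocyte gene of 5 was named. Over the 15 lists beside the hormones, 41 of 185 genes were named and 35 tested, and 7 were called lower in each contrast, 6 of them exocrine and the other CBLIF. Of these 7, REG3A and CBLIF entered the test only through the healthy arrays, which leaves 5. In malignant against benign tumours limma called 0 of the 35, with 1, CLPS, at an unadjusted p of at most 0.05.

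The genes at hand for the mammary label were KRT14, a keratin of basal mammary epithelium, and the milk protein genes CSN2 and LALBA. KRT14 was the 1 gene named of 7 listed for mammary epithelium. KRT14 was well above background on all 19 arrays, at 3.92 and 5.0 in healthy dogs 1 and 2, inside the tumour range of 0.86 to 8.37. CSN2 was at -5.90 in healthy dog 1, not well above background, and at -0.46 in healthy dog 2. LALBA was at -4.41 and 1.51 in healthy dogs 1 and 2. The healthy samples thus held KRT14 together with islet and exocrine genes, and the dog with the higher hormone levels had the lower milk protein levels. A single keratin gene cannot settle the mammary label, and the make-up of the samples was not tested.

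**Figure D4:**
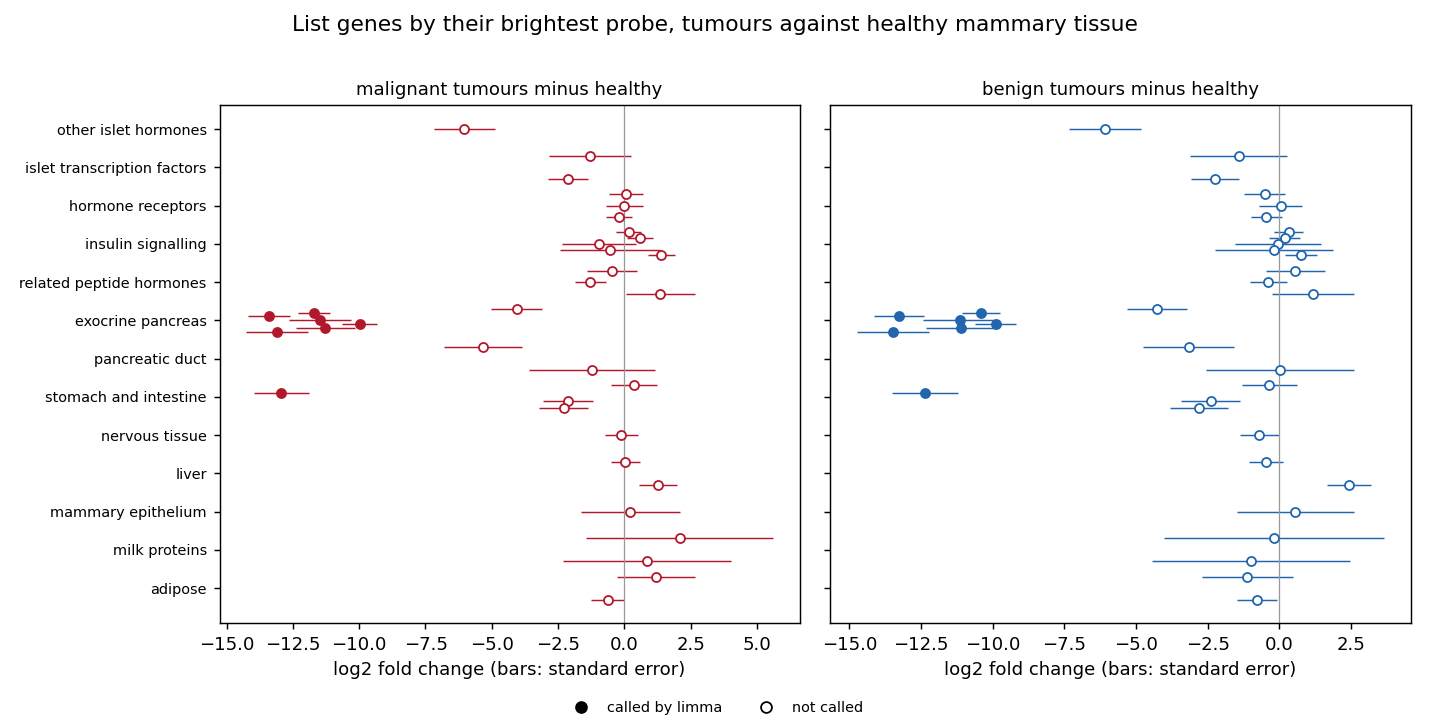
Fitted log2 differences between tumours and healthy tissue, with their standard errors, for the tested genes of the lists beside the islet hormones by their brightest probe, filled where limma called the gene. The called genes are 6 exocrine genes and CBLIF in both panels; fitted values of genes below background in tumours, such as REG3A, are not folds.

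With the 4 hormones left out, the genes most like each of them were ranked by Pearson r over the 10 dogs among 1319 named genes. For INS they were DNASE1 (r = 0.993), LOC100687463 (r = 0.993) and REG3A (r = 0.992), and for SST they were REG3A (r = 0.997), LOC100687463 (r = 0.990) and CBLIF (r = 0.989). For IAPP they were PPY (r = 0.958), UMOD (r = 0.952) and DNASE1 (r = 0.945). INS and SST correlated with each other at r = 0.996. Both were chosen by their levels in healthy and tumour tissue, and SST was well above background on 0 of 14 tumour arrays, so nothing is read from this value. All these values are set by the distance between 2 healthy and 8 tumour dogs. GCG gave lower values, for KCNE2 (r = 0.861), CRYBB2 (r = 0.845) and CCL26 (r = 0.845), and in each of these benign dog 2 was the highest tumour. Except for PPY, the genes named for likeness were above background on 4 to 8 of the 19 arrays, so these correlations rest in large part on levels not well above background.

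The background correction moved all probes as well as the hormones. The median malignant minus healthy difference over all probes was 0.07 as reported and -0.20 after normexp correction, and the median benign minus healthy difference 0.03 and -0.52. The group means of the 4 hormones were lower in tumours with and without this correction. The members were chosen by this contrast, so nothing is read from that.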

How the data were processed

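Signals were read from the deposited scanner output of Agilent Feature Extraction 11.5.1.1, in which the authors give the background-subtracted processed signal of each spot as an intensity on a linear scale. The deposited table of values holds the median signal intensity, equal to the scanner's median in 45220 of 45220 spots on each of 19 arrays. Outlier spots were left out, log2 signals were set relative to the 75th percentile of the array, and arrays of a dog were averaged. Tested were the 35288 of 43603 probes with at least 4 arrays well above background, with limma 3.58.1 in R 4.3.3, in 1 model of the 3 groups, at a Benjamini-Hochberg adjusted p of 0.05; the fit was tested on simulated data. The RefSeq table named 2353 probes with 1458 symbols. Named were the 4 hormones and the named genes of 15 lists, with 1 listed gene left out. Named too were, for each hormone, the 3 genes with the highest r outside the 4 hormones. A gene with several probes is given by its brightest. Members and lists were chosen with earlier results of these data known. Alternatives changed the background, scaling, filter, table, model, probe and dogs. Normexp used median spot and background signals and an offset of 50, since mean signals were absent. The number of dogs limits the precision, above all that of the healthy dogs.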

Additional observations from a re-analysis of the deposited data

Results flagged for a closer look

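In malignant dogs, 1 of 41 probes or genes examined, the 6 hormone probes and 35 list genes, had 1 dog far from the other 4. Chance marks about 1 in 20 groups in this way. LALBA was highest in malignant dog 2, at a level of 8.04, with a gap to the next dog of 0.743 of the whole range. The critical value for 5 dogs was 0.71. No hormone probe met it; groups of 3 and 2 dogs, and so the GCG level of benign dog 2, were not examined in this way.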

How the results depend on the processing

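The mean of the tumours stayed below that of the healthy dogs in every alternative that gave a value for INS, SST, GCG or IAPP. The cause of a shift was not tested except where the construction shows it.

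With normexp correction, whose offset lifts dim signals, the malignant minus healthy difference was -9.04 for INS, -5.47 for the bound of SST, -3.27 for GCG and -3.30 for IAPP, and the benign one -6.29 for SST, -2.14 for GCG and -3.68 for IAPP. With the table of signals, which has no background subtracted, these were -5.88 for SST, -3.73 for GCG and -3.83 for IAPP, and -6.44, -2.37 and -3.92 in benign tumours; with malignant dog 6 added, IAPP gave -3.83 and -3.92. The IAPP difference between malignant and benign tumours turned to 0.37, 0.089 and 0.13 under these 3 settings. The other INS probe, added after seeing the data, gave -6.31 and -6.72.

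Leaving out 1 dog at a time moved INS between -13.03 and -8.31 in malignant and between -13.09 and -8.36 in benign tumours, the bound of SST between -10.67 and -5.72 and between -11.02 and -6.08, that of GCG between -7.74 and -2.80 and between -5.77 and -0.77, and that of IAPP between -7.90 and -2.86 and between -7.33 and -2.29. The plain difference of IAPP, which is no bound since it takes in arrays below background, moved between -9.32 and -4.28 and between -8.01 and -2.97. Malignant versus benign moved between -0.25 and 0.44 for INS and between -3.24 and 0.87 for GCG, and INS gave -0.13 without malignant dog 3 and -0.02 without benign dog 3.

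Probes called in malignant versus healthy numbered 47 with a filter for every array (fewer probes tested), 88 with 1 probe a gene (fewer tested), 32 with an unpaired single-probe test, and 96 to 950 leaving out 1 dog. In benign versus healthy they numbered 41, 81, 0, 37 with only the groups compared in the fit, and 86 to 994. With dog number as a replicate block they numbered 89 and 85; the numbers do not pair dogs, since r between dogs of one number ran from -0.1739 to 0.1058. Malignant versus benign gave 0 to 2 leaving out 1 dog, the 2 without benign dog 3. Other islet genes called in malignant tumours numbered 1 with normexp, quantile normalization, the table with malignant dog 6, dog as a random block, and slide as a block, in benign tumours 1 with slide as a block, and 0 to 2 in each leaving out 1 dog. Receptor and insulin signalling genes gave 0 under all 14 other settings and 10 omissions.

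The study's methods name a paired test, which could not be run since the dogs do not pair, and an unpaired one took its place. SST had no bound in the table with malignant dog 6, which has no well-above-background call, nor in the block models, whose fitted values with slide as a block were -10.12 and -10.44. The filter for every array keeps INS alone among the hormones.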
